A study of Mus musculus with 10 samples.

Results

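Platelet-derived growth factor (PDGF) signalling was examined in the fetal mouse pancreas through 6 genes chosen by symbol from the 27716 genes listed in every expression matrix. They comprised the receptor genes *Pdgfra* and *Pdgfrb* and the ligand genes *Pdgfa*, *Pdgfb*, *Pdgfc* and *Pdgfd*. *Pdgfra* encodes CD140a, the surface protein by which mesenchymal cells were removed from some of the libraries. Transcripts were counted as unique molecular identifiers (UMIs) in single cells of 8 independent libraries, each a pool of whole pancreata.

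The v1 libraries held all live cells of Swiss Webster embryos, with 18 pancreata of 2 litters at E12.5 (embryonic day), 14 and 11 pancreata of separate litters in E14.5 batches 1 and 2, and 8 pancreata of 1 litter at E17.5. The v1 E12.5 and E17.5 libraries also belong to batch 2, which was collected on another day than batch 1. The v2 libraries held live Swiss Webster cells depleted of CD140a+ cells, with 14 pancreata in the E12.5 pool and 13 in each of the E14.5 and E17.5 pools, each of 1 litter. Each v2 stage was prepared on a different day. The Fev-Cre library came from 3 E14.5 *Fev-Cre*; *ROSA26mTmG* pancreata of 1 litter on a C57BL/6J background, in which Cre driven by *Fev* turns a membrane tdTomato into membrane GFP. Its GFP+ cells and its GFP-/tdTomato+ cells were sorted without CD140a depletion and run with the v2 kit. All sorted GFP+ cells, which are of the *Fev* lineage, were loaded and GFP-/tdTomato+ cells were added to them, so its cell mix was set by that sort. Kit, sequencer and depletion changed together between v1 and v2 and cannot be told apart. The 4 v1 libraries and the Fev-Cre library are called unsorted below, since none was depleted of CD140a+ cells.

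PDGFs are secreted dimers that signal through paired receptor tyrosine kinases. PDGF-A and PDGF-C act mainly on PDGFRα, PDGF-B on both receptors and PDGF-D mainly on PDGFRβ. In developing organs PDGFRα is a receptor of fibroblast-like mesenchyme that often receives ligand from an adjoining epithelium. PDGFRβ marks vascular smooth muscle (VSM) cells and pericytes, which endothelial PDGF-B recruits to vessels.

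On GRCm38 with the GENCODE annotation, *Pdgfra* (ENSMUSG00000029231) lies at chr5:75152292-75198215 on the plus strand and *Pdgfrb* (ENSMUSG00000024620) at chr18:61045150-61085061 on the plus strand. The ligand genes are *Pdgfa* (ENSMUSG00000025856) at chr5:138976014-138997370 on the minus strand, *Pdgfb* (ENSMUSG00000000489) at chr15:79995874-80014977 on the minus strand, *Pdgfc* (ENSMUSG00000028019) at chr3:81036416-81214040 on the plus strand and *Pdgfd* (ENSMUSG00000032006) at chr9:6168584-6378850 on the plus strand. All 6 are protein-coding, and the counts themselves were made with another annotation of the same build.

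The matrices held 15671934 to 127151679 UMIs per run, with a median of 3084 to 10252 UMIs per barcode. Haemoglobin genes took 0.0128% to 60.9% of UMIs, the most in v1 E17.5, where 2309 of 4635 barcodes had at least 200 genes. Independent libraries shared at most 1.79% of the barcodes of the smaller one. Cells were clustered and named from fixed marker genes with the 6 PDGF genes held out. Mesenchymal cells that were neither mesothelial-like nor VSM-like or pericyte-like are called other mesenchymal cells. Levels are CPM, in which UMIs were summed over the cells of a class in a library and divided by their total, with mean ± SD over libraries, and were not compared between genes. For single libraries, exact 95% intervals (Poisson for levels, binomial for shares) reflect counting error alone.

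Pooled over libraries, the receptors and *Pdgfc* came mostly from mesenchymal cells, while the source of the other ligands varied between libraries. Over the 5 unsorted libraries, mesenchymal cells held 95.1% of all *Pdgfra* UMIs (2846 of 2992), with 92.0% to 99.5% in single libraries. They held 94.3% of *Pdgfrb* UMIs (4105 of 4355) and 91.1% of *Pdgfc* UMIs (2001 of 2197). The *Pdgfc* share ranged from 25.5% in v1 E17.5 to 98.8%. Epithelial cells held 65.5% of *Pdgfa* UMIs (4629 of 7064), with 11.5% to 83.5% in single libraries, and mesenchymal cells held more *Pdgfa* in v1 E12.5 (87.4%) and v1 E14.5 batch 2 (74.7%). Fev-Cre alone gave 3378 of the 4629 epithelial *Pdgfa* UMIs, so the pooled share leans on that library. *Pdgfd* UMIs were split between epithelial (48.8%, 237 of 486) and mesenchymal cells (47.3%), with an epithelial share of 12.6% to 72.5% in single libraries. Fev-Cre gave 93 of the 237 epithelial UMIs. Mesenchymal cells held more *Pdgfd* in v1 E12.5 (75.8%) and v1 E14.5 batch 2 (83.8%), and epithelial cells in the rest. *Pdgfb* gave only 105 UMIs, of which 24.8% were in the rare endothelial-like cells and 47.6% in epithelial cells, with 4.55% to 71.4% and 0% to 68.2% in single libraries. Fev-Cre gave 30 of the 50 epithelial UMIs, and the 4 v1 libraries without it gave 24 UMIs in endothelial-like and 20 in epithelial cells, the opposite order. These shares follow the number of cells of each class loaded as well as the level per cell.

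*Pdgfra*, the receptor of fibroblast-like mesenchyme, was highest in other mesenchymal cells in each of the 5 unsorted libraries. Its level there was 38.2 CPM in v1 E12.5, 85.3 and 60.9 CPM in v1 E14.5 batches 1 and 2, 61.5 CPM in v1 E17.5 and 78.5 CPM in Fev-Cre. In VSM-like and pericyte-like cells of the same libraries it was 20.6, 6.397, 12.9, 0 and 10.3 CPM, and in mesothelial-like cells 3.64, 2.45, 4.23, 11.03 and 2.74 CPM. The lowest of the other mesenchymal levels stood above the highest level of either of these classes. The latter 2 classes overlapped with each other and with macrophage-like cells (4.01 ± 4.32 CPM, n = 5). Endothelial-like cells gave 0 *Pdgfra* UMIs in all 8 libraries.

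Against other mesenchymal cells, *Pdgfra* was lower in mesothelial-like cells by 4.21 ± 0.23 on the log2 scale (SE), in 5 of 5 libraries. The test was edgeR's quasi-likelihood test with library as a block and Benjamini-Hochberg adjustment over all genes tested (edgeR adjusted p = 6.03e-08). Genes with an adjusted p below 0.05 that differed by 2-fold or more are those called. In VSM-like and pericyte-like cells *Pdgfra* averaged 10.1 ± 7.64 CPM against 64.9 ± 18.3 CPM in other mesenchymal cells and was lower in 5 of 5 libraries (edgeR adjusted p = 4.53e-05). Epithelial cells averaged 1.37 ± 0.978 CPM against 51.3 ± 11.5 CPM in all mesenchymal cells (edgeR adjusted p = 8.47e-06, lower in 5 of 5 libraries). That epithelial level was no higher than the 2.68 ± 1.65 CPM (n = 4) of erythroid-like cells, which should lack the gene. It was read as background.

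The 0 *Pdgfra* UMIs in endothelial-like cells put the gene at least 18.2-fold lower than in mesenchymal cells (edgeR adjusted p = 4.85e-08). That bound allows 3 counts over the group, or 2.82 CPM. In macrophage-like cells 5 UMIs were found in all against 2846 in mesenchymal cells (log2 fold change -3.88 ± 0.49, edgeR adjusted p = 8.34e-06).

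After each cell was thinned to 2000 UMIs, 6.20% to 11.6% of mesenchymal cells in the v1 libraries held a *Pdgfra* UMI, against 0% to 0.901% of erythroid-like cells. Without thinning these shares were 12.9% to 15.5% at median depths of 2500 to 4145 UMIs, and 0.344% to 3.31% at 4474 to 11366 UMIs. The share in mesenchymal cells was above that background in each v1 library.

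*Pdgfrb*, the receptor of mural cells, was highest in VSM-like and pericyte-like cells. It reached 136 CPM in v1 E12.5, 179 and 220 CPM in v1 E14.5 batches 1 and 2, 205 CPM in v1 E17.5 and 221 CPM in Fev-Cre. Other mesenchymal cells followed with 60.002, 90.6, 72.0, 46.9 and 111 CPM in the same order. No library of the second class reached the lowest of the first, and *Pdgfrb* was higher in VSM-like and pericyte-like cells by 1.31 ± 0.15 on the log2 scale in 5 of 5 libraries (edgeR adjusted p = 6.29e-06). Of the 5 PDGF genes tested between these classes, 3 were called, where 6.33% of all 10972 genes tested were called, 2.98% higher and 3.35% lower.

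Mesothelial-like cells held little *Pdgfrb*, at 4.12 ± 2.70 CPM against 76.0 ± 25.1 CPM in other mesenchymal cells. The difference was -4.20 ± 0.21 (log2, edgeR adjusted p = 3.86e-08, lower in 5 of 5 libraries). All 5 PDGF genes tested in this comparison were called, 3 higher and 2 lower in mesothelial-like cells, beside 18.1% of the 12257 genes tested (10.6% higher and 7.46% lower). The level in mesothelial-like cells was close to that of erythroid-like cells, at 4.02 ± 1.90 CPM.

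Epithelial cells held 2.24 ± 1.32 CPM of *Pdgfrb* against 67.5 ± 14.55 CPM in mesenchymal cells (edgeR adjusted p = 5.03e-06, lower in 5 of 5 libraries). Endothelial-like cells gave 2 *Pdgfrb* UMIs in all, a level 36.8-fold lower than in mesenchymal cells with a counting interval of 10.2 to 304 (edgeR adjusted p = 1.01e-08). Macrophage-like cells gave 4 (log2 fold change -4.71 ± 0.47, edgeR adjusted p = 6.40e-07). Thinned to 2000 UMIs, 21.6% to 41.5% of VSM-like and pericyte-like cells of v1 held a *Pdgfrb* UMI, against 0% to 1.68% of erythroid-like and 0% to 1.69% of beta-like cells. Without thinning the first share was 39.4% to 66.4%.

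**Figure D1:**
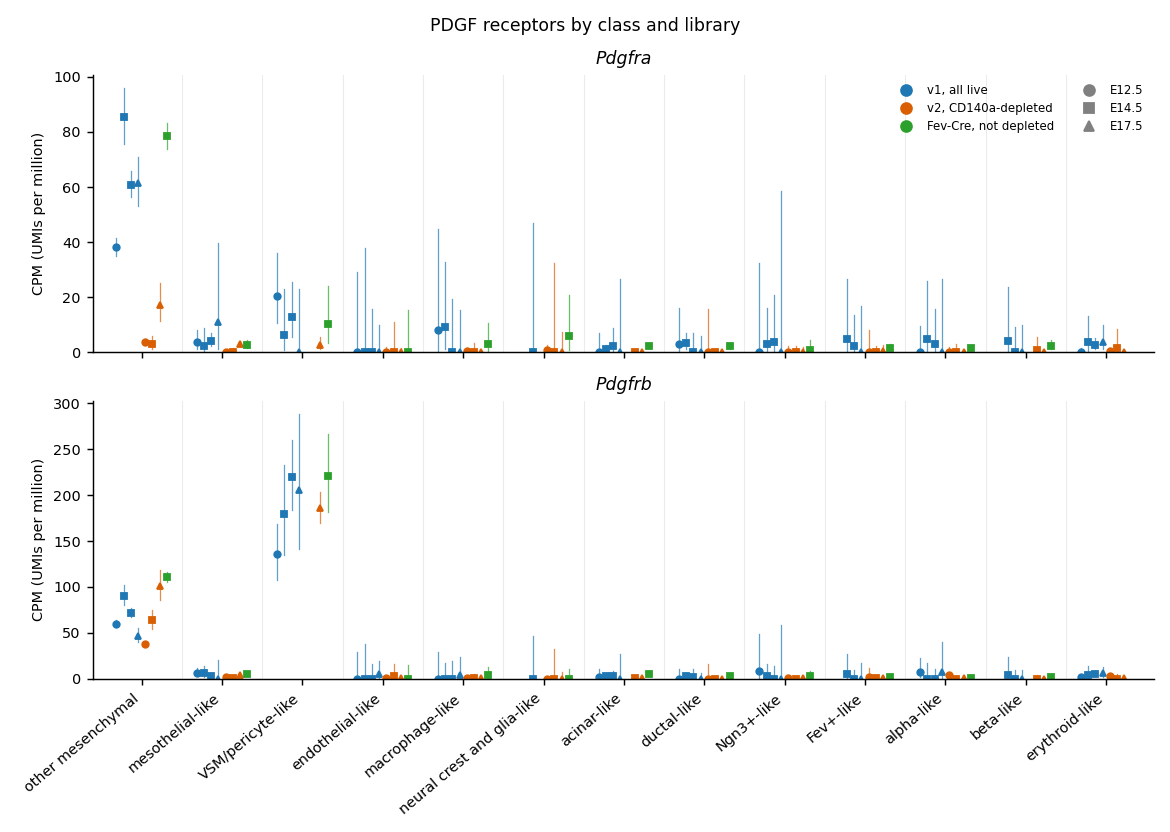
Levels of *Pdgfra* (top) and *Pdgfrb* (bottom) in CPM by cell class, 1 point per library, coloured by data set and shaped by stage, with exact 95% Poisson intervals. *Pdgfra* stands out in other mesenchymal cells of the unsorted libraries (38.2 to 85.3 CPM), and *Pdgfrb* in VSM-like and pericyte-like cells (136 to 221 CPM in the unsorted libraries), with other mesenchymal cells next.

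Both receptors were detected in other mesenchymal cells, each in a minority of cells after thinning to 2000 UMIs. In the v1 libraries *Pdgfra* was found in 6.90% to 15.1% and *Pdgfrb* in 8.59% to 16.2% of these cells. At such detection few cells can show both, so the joint shares cannot tell whether the receptors mark separate cells. At 2000 UMIs per cell, 0.581% to 2.15% of these cells in the v1 libraries held UMIs of both genes. The product of the 2 separate shares was 0.787% to 2.44%, above the joint share in each v1 library. In v1 E12.5, 9.09% of cells with a *Pdgfra* UMI also held *Pdgfrb*, against 11.6% of the rest. The pairs were 14.3% and 16.6% in v1 E14.5 batch 1, 9.85% and 11.6% in batch 2, and 6.25% and 8.83% in v1 E17.5. In Fev-Cre the order was the other way round, at 21.4% and 16.997%. These shares describe cells that share a library and were not tested.

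*Pdgfa*, a ligand of PDGFRα, was found both in the epithelium and in the mesenchyme, where 2 of the classes held the most. Mesothelial-like cells held 90.5 CPM in v1 E12.5, 67.5 and 105 CPM in v1 E14.5 batches 1 and 2, 116 CPM in v1 E17.5 and 81.5 CPM in Fev-Cre. VSM-like and pericyte-like cells held 89.2, 73.6, 128, 124 and 143 CPM. Other mesenchymal cells, which held most *Pdgfra*, had 24.8, 23.0, 23.4, 20.8 and 20.3 CPM. They varied little and did not overlap with either of the other classes.

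The difference from other mesenchymal cells was 1.98 ± 0.12 for mesothelial-like cells (log2, edgeR adjusted p = 1.59e-07) and 2.27 ± 0.18 for VSM-like and pericyte-like cells (edgeR adjusted p = 8.28e-08), each higher in 5 of 5 libraries. *Pdgfa* was therefore higher, and *Pdgfra* lower, in both classes than in the rest of the mesenchyme. Erythroid markers, summed, reached 21642 CPM in the mesothelial-like cells of v1 E17.5, of which there were 48, and their part in the values of that library was not tested.

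In the epithelium *Pdgfa* was higher in exocrine than in endocrine cells. Exocrine cells held 55.9 CPM in v1 E12.5, 106 and 107 CPM in v1 E14.5 batches 1 and 2, 94.3 CPM in v1 E17.5 and 96.6 CPM in Fev-Cre, against 41.9, 56.0, 36.2, 45.4 and 29.4 CPM in endocrine cells. The ranges met only at the v1 E12.5 exocrine and the v1 E14.5 batch 1 endocrine value. Endocrine cells were lower by 1.44 ± 0.21 on the log2 scale in 5 of 5 libraries (edgeR adjusted p = 0.000171). *Pdgfa* was the only PDGF gene with enough counts for this test, and 32.9% of the 10337 genes tested were called, 16.2% higher and 16.7% lower.

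Acinar-like and ductal-like cells could not be separated by *Pdgfa*, at 86.9 ± 18.7 and 99.9 ± 35.3 CPM (log2 difference -0.01 ± 0.16, edgeR adjusted p = 0.972). Within the endocrine lineage, Ngn3+-like progenitors held more *Pdgfa* than Fev+-like cells in 7 of the 7 libraries with both, with intervals apart in 5. The Ngn3+-like levels were 95.8, 81.9 and 95.4 CPM in v1 E14.5 batches 1 and 2 and v1 E17.5, against 28.8, 26.7 and 36.8 CPM. Across the v2 stages they were 63.7, 82.0 and 48.3 CPM against 10.9, 22.8 and 33.7 CPM, and in Fev-Cre 72.0 against 28.6 CPM.

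Between all epithelial and all mesenchymal cells, *Pdgfa* differed by 0.91 ± 0.18 on the log2 scale, higher in epithelial cells in 5 of 5 libraries but under 2-fold (edgeR adjusted p = 0.00337). Of the 5 PDGF genes tested here, 3 were called and all 3 were lower in the epithelium. Among all 13936 genes tested 33.0% were called, 17.1% higher and 15.9% lower.

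Ordered by mean level in the unsorted libraries, *Pdgfa* was highest in neural crest and glia-like cells (187 ± 59.1 CPM, n = 2) and then ran from VSM-like and pericyte-like (111 ± 28.8 CPM, n = 5) through ductal-like, mesothelial-like and acinar-like to Ngn3+-like cells (76.1 ± 24.9 CPM, n = 5), and neighbours from VSM-like and pericyte-like cells on differed by less than their SD. Beta-like (36.3 ± 5.86 CPM, n = 4), Fev+-like (30.2 ± 4.47 CPM, n = 4) and alpha-like cells (29.6 ± 13.7 CPM, n = 5) formed a lower run with overlapping ranges. Endothelial-like cells held 4.68 ± 6.44 CPM and were lower than mesenchymal cells (log2 fold change -2.55 ± 0.49, edgeR adjusted p = 0.000144). Macrophage-like cells gave 2 *Pdgfa* UMIs, a level 28.1-fold below mesenchymal cells with a counting interval of 7.77 to 232 (edgeR adjusted p = 7.41e-06). At 2000 UMIs per cell a *Pdgfa* UMI was found in 13.5% to 23.9% of mesothelial-like and 11.2% to 20.9% of exocrine cells of v1, against 5.08% to 8.11% of beta-like and 0% to 1.80% of erythroid-like cells.

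*Pdgfb*, the ligand that endothelium presents to mural cells, was rare and highest in endothelial-like cells. They held 7.95 CPM in v1 E12.5 (1 UMI), 30.9 CPM in v1 E14.5 batch 1 (3 UMIs), 42.9 CPM in batch 2 (10 UMIs), 27.2 CPM in v1 E17.5 (10 UMIs) and 8.36 CPM in Fev-Cre (2 UMIs). Mesenchymal cells stood between 0.0688 and 0.461 CPM, below every endothelial-like value. *Pdgfb* was higher in endothelial-like cells by 6.26 ± 0.77 on the log2 scale in 5 of 5 libraries (edgeR adjusted p = 1.69e-07). From the pooled counts of 26 and 14 UMIs the ratio was 103, with a counting interval of 52.1 to 214. The v2 endothelial-like cells held 11.98, 20.6 and 29.0 CPM from E12.5 to E17.5, on 22, 7 and 70 UMIs.

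All 6 PDGF genes were tested and called between endothelial-like and mesenchymal cells, with *Pdgfb* and *Pdgfd* higher and the other 4 lower. Of the 11318 genes tested 23.4% were called, 8.63% higher and 14.8% lower. The unsorted libraries held 22 to 102 endothelial-like cells each, and erythroid markers came to 60175 CPM in those of v1 E17.5. Whether these markers bear on the *Pdgfb* level there was not tested.

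Macrophage-like cells held *Pdgfb* as well, at 0, 13.6, 5.24 and 4.16 CPM in the v1 libraries from 0, 3, 1 and 1 UMIs, and at 4.45 CPM in Fev-Cre. The level was above that of mesenchymal cells in 4 of 5 libraries (log2 fold change 4.24 ± 1.00, edgeR adjusted p = 0.00264), with a pooled ratio of 23.3 and a counting interval of 8.48 to 59.6. The deeper v2 libraries gave 3.59, 1.92 and 5.51 CPM from E12.5 to E17.5, on 15, 2 and 42 UMIs. In this comparison 5 of the 6 PDGF genes were called, *Pdgfb* higher and 4 lower, where 37.6% of 11602 genes were called, 13.2% higher and 24.4% lower.

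Of the 50 epithelial *Pdgfb* UMIs of the unsorted libraries, 23 were in ductal-like and 20 in acinar-like cells. In v2 ductal-like cells held 1.79 CPM at E14.5 (20 UMIs) and 2.88 CPM at E17.5 (91 UMIs), and acinar-like cells 0.937 CPM (28 UMIs) and 1.74 CPM (36 UMIs). Neural crest and glia-like cells held 38.1 CPM in v1 E14.5 batch 2 (3 UMIs), 14.02 CPM in v2 E17.5 (7 UMIs), 2.11 CPM in v2 E12.5 (6 UMIs), 2.90 CPM in Fev-Cre (1 UMI) and 0 CPM in v2 E14.5. Alpha-like, Fev+-like and erythroid-like cells of the unsorted libraries held no *Pdgfb* UMI. Thinned to 2000 UMIs, 0% to 9.30% of v1 endothelial-like cells held the transcript and no erythroid-like or beta-like cell did.

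*Pdgfc*, the other ligand of PDGFRα, had its highest mean in mesothelial-like cells, which held the most in 4 of the 5 unsorted libraries. In other mesenchymal cells the level was 24.9 CPM in v1 E12.5, 7.47 and 9.61 CPM in v1 E14.5 batches 1 and 2, 2.28 CPM in v1 E17.5 and 7.32 CPM in Fev-Cre. In mesothelial-like cells it was 210, 126, 159, 27.6 and 75.0 CPM in the same order, above every other mesenchymal value. The difference was 3.56 ± 0.17 on the log2 scale, higher in 5 of 5 libraries (edgeR adjusted p = 2.88e-08). The lowest mesothelial-like value, of v1 E17.5, came from 5 UMIs.

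By mean *Pdgfc* level, mesothelial-like cells were followed by ductal-like (17.7 ± 25.2 CPM, n = 5), neural crest and glia-like (12.16 ± 0.776 CPM, n = 2), other mesenchymal (10.3 ± 8.60 CPM, n = 5) and VSM-like and pericyte-like cells (5.02 ± 8.20 CPM, n = 5), with overlapping ranges from ductal-like cells on. In VSM-like and pericyte-like cells the log2 fold change against other mesenchymal cells was -1.31 ± 0.55 (edgeR adjusted p = 0.147, higher in 1 of 5 libraries). Endothelial-like and macrophage-like cells gave 3 and 2 *Pdgfc* UMIs. These levels were 11.97-fold and 24.5-fold below mesenchymal cells, with counting intervals of 4.09 to 58.1 and 6.78 to 203 (edgeR adjusted p = 0.000343 and 9.35e-05).

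Epithelial cells held less *Pdgfc* than mesenchymal cells in 4 of 5 libraries, by 2.53 ± 0.80 on the log2 scale (edgeR adjusted p = 0.0285). The exception was v1 E17.5, with 22.1 CPM in epithelial and 3.81 CPM in mesenchymal cells. In that library ductal-like cells reached 61.9 CPM (38 UMIs), against 2.39 to 15.0 CPM in the other unsorted libraries, and carried erythroid markers at 10247 CPM, whose part in this value was not tested. When any 1 of 4 other libraries was left out the call was lost, with adjusted p up to 0.113 by edgeR. Acinar-like cells held 7.80, 3.84, 1.21, 0 and 3.30 CPM of *Pdgfc* in v1 E12.5, v1 E14.5 batches 1 and 2, v1 E17.5 and Fev-Cre, against 5.78, 3.26, 14.96, 61.9 and 2.39 CPM in ductal-like cells. The classes were close in 3 libraries and ductal-like cells stood well above in v1 E14.5 batch 2 and v1 E17.5, and over all 5 the test gave a log2 difference of -0.14 ± 0.53 (edgeR adjusted p = 0.882). At 2000 UMIs per cell 8.70% to 34.3% of v1 mesothelial-like cells held a *Pdgfc* UMI, and no erythroid-like or beta-like cell did.

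*Pdgfd*, the ligand that acts mainly on PDGFRβ, was spread over ductal-like, endothelial-like and mesothelial-like cells. Ductal-like cells held 5.78 CPM in v1 E12.5, 19.0 and 16.8 CPM in v1 E14.5 batches 1 and 2, 111 CPM in v1 E17.5 and 2.94 CPM in Fev-Cre. The v1 E17.5 value comes from the cells with erythroid markers at 10247 CPM, against 3.59 to 1163 CPM in ductal-like cells of the other unsorted libraries, and the part of these markers in it was not tested. Acinar-like cells held 5.85, 1.57, 1.21, 7.18 and 0.629 CPM. The 2 classes had overlapping ranges. The values in v1 E12.5 were nearly equal, on 3 and 2 UMIs, and the acinar-like value in v1 E17.5 was 1 UMI in 40 cells. Within libraries acinar-like cells were lower in 4 of 5, by 2.52 ± 0.41 on the log2 scale (edgeR adjusted p = 0.000395). *Pdgfd* was the 1 gene called among the 3 PDGF genes tested there, where 11.2% of 8406 genes were called, 4.12% higher and 7.08% lower.

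In endothelial-like cells *Pdgfd* averaged 14.7 ± 8.37 CPM against 5.14 ± 3.19 CPM in mesenchymal cells and was higher in 4 of 5 libraries (log2 fold change 1.62 ± 0.53, edgeR adjusted p = 0.0188). The pooled ratio was 4.12 with a counting interval of 2.36 to 6.74, from 17 and 230 UMIs. This call was lost without v1 E14.5 batch 2, without v1 E17.5 and without Fev-Cre, at edgeR adjusted p of 0.0585 to 0.115. Mesothelial-like cells held 14.1 ± 9.19 CPM against 3.998 ± 2.92 CPM in other mesenchymal cells, higher in 5 of 5 libraries (log2 fold change 1.81 ± 0.37, edgeR adjusted p = 0.00254).

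Epithelial and mesenchymal cells did not differ detectably in *Pdgfd*, at 12.1 ± 17.3 and 5.14 ± 3.19 CPM (log2 difference 0.47 ± 0.53, edgeR adjusted p = 0.495). VSM-like and pericyte-like cells gave 2 UMIs and macrophage-like cells 1 (edgeR adjusted p = 0.233 and 0.0588). Among all classes the mean ran from ductal-like (31.1 ± 45.1 CPM, n = 5) through endothelial-like and mesothelial-like to Ngn3+-like (10.3 ± 21.0 CPM, n = 5) and alpha-like cells (8.81 ± 5.25 CPM, n = 5), each within the spread of its neighbour. At 2000 UMIs per cell *Pdgfd* was found in 0% to 21.6% of v1 ductal-like, 0% to 1.35% of beta-like and no erythroid-like cells.

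**Figure D2:**
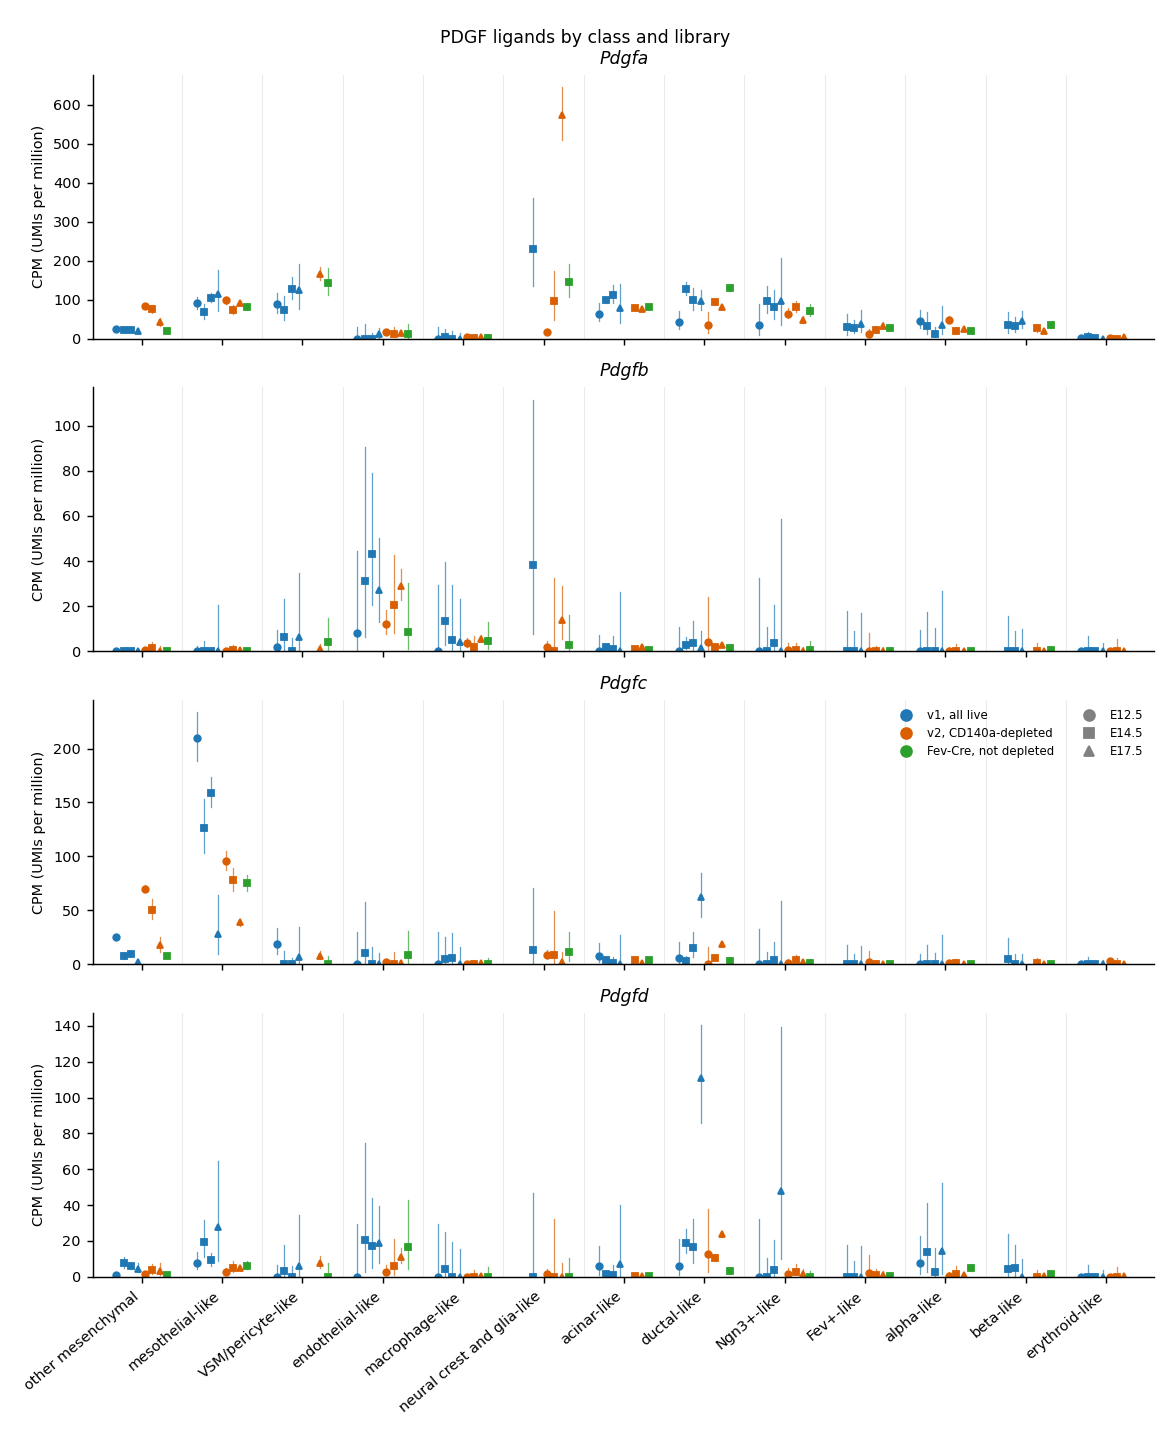
Levels of the 4 ligand genes in CPM by cell class, 1 point per library, with colours for the data set, shapes for the stage and exact 95% Poisson intervals. *Pdgfb* is highest in endothelial-like cells (7.95 to 42.9 CPM in the unsorted libraries) and *Pdgfc* in mesothelial-like cells (27.6 to 210 CPM) of all unsorted libraries but v1 E17.5, where ductal-like cells reach 61.9 CPM. *Pdgfa* is found in epithelial and mesenchymal classes, and in the unsorted libraries is lower in other mesenchymal than in mesothelial-like and VSM-like or pericyte-like cells. It has 1 v2 neural crest and glia-like value at 575 CPM.

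The CD140a depletion was examined through *Pdgfra* in the mesenchymal cells that were left. Mesenchymal cells made up 91.5%, 48.6%, 82.2% and 55.7% of cells that were not erythroid in v1 E12.5, E14.5 batches 1 and 2 and E17.5, and 39.9%, 11.9% and 17.9% across the v2 stages in the same order. The means were 69.5 ± 20.6% (n = 4) and 23.3 ± 14.7% (n = 3), a difference of -46.2 percentage points (exact two-sided permutation p = 0.0571). The smallest p this design allows is 0.0286, from 35 splits. The Fev-Cre library, whose sort did not use CD140a, had 38.7%, close to v2 E12.5. Its GFP sort enriched cells of the *Fev* lineage, so this share is not that of a whole pancreas without depletion. The depletion, the kit and the sequencer cannot be told apart in this share.

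Among mesenchymal cells the *Pdgfra* level was 34.2, 64.1, 45.9 and 56.0 CPM in the v1 libraries and 3.18, 1.37 and 4.17 CPM in v2 from E12.5 to E17.5. The groups were far apart and did not overlap. At matched stage the level was 10.8-fold lower in v2 at E12.5 (interval 8.60 to 13.6), 46.7-fold and 33.5-fold lower than v1 batches 1 and 2 at E14.5 (22.4 to 117 and 16.2 to 83.6), and 13.4-fold lower at E17.5 (10.3 to 17.53). Against the Fev-Cre library, made with the same kit as v2 but without depletion, v2 E14.5 was 41.0-fold lower (19.8 to 102). The Fev-Cre library also differed from v2 in strain and in its GFP sort.

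Fitted over the 7 Swiss Webster libraries with stage, *Pdgfra* fell by 3.77 ± 0.33 on the log2 scale in the depleted mesenchyme (edgeR adjusted p = 0.000279). Of the 5 PDGF genes tested 3 were called, *Pdgfra* lower and *Pdgfa* and *Pdgfc* higher. *Pdgfra* encodes the protein that the sort selected against, so its call was not independent of the design. Among all 14146 genes tested 12.1% were called, 8.02% higher and 4.13% lower.

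At 2000 UMIs per cell a *Pdgfra* UMI was found in 6.20%, 11.6%, 8.41% and 8.69% of v1 mesenchymal cells. In v2 it was found in 0.686% at E12.5 (exact binomial interval 0.463% to 0.978%), 0.305% at E14.5 (0.0629% to 0.888%) and 0.888% at E17.5 (0.509% to 1.44%). The difference was -8.10 percentage points (exact two-sided permutation p = 0.0286, the smallest these libraries can give). Among beta-like cells, 1 of 135 held a *Pdgfra* UMI in v2 E14.5 (0.741%) and 1 of 638 in v2 E17.5 (0.157%), and no v2 erythroid-like cell did. Of v2 E14.5 epithelial cells as a whole 1 of 6855 held one (0.0146%), so the 3 of 984 mesenchymal cells there lay above the epithelial share and below that of the few beta-like cells. Without thinning the v2 mesenchymal shares were 0.711% to 4.50% at median depths of 4761 to 10679 UMIs, against 0.157% to 0.741% of beta-like cells at 7052 and 21556 UMIs and 0.102% to 0.926% of erythroid-like cells. In Fev-Cre 11.3% of mesenchymal cells were positive.

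The named classes took different shares of the mesenchyme in v2 and v1. The names come from whole clusters, and v2 cells left in the other mesenchymal class carried raised mesothelial markers, so the class may not hold the same cells in both data sets. Other mesenchymal cells, the class that held *Pdgfra*, made up 85.0% of mesenchymal cells in v2 E12.5, 46.95% in v2 E14.5 and 8.77% in v2 E17.5, against 79.5% to 92.1% in v1 and 76.6% in Fev-Cre. Mesothelial-like cells, low in *Pdgfra*, made up 15.0%, 52.0% and 78.01%, against 4.07% to 17.3% in v1 and 21.7% in Fev-Cre. VSM-like and pericyte-like cells made up 0%, 1.02% and 13.2%, against 3.23% to 5.21% in v1 and 1.64% in Fev-Cre, whose interval (1.21% to 2.17%) overlapped that of v2 E14.5 (0.488% to 1.86%). At E12.5 the exact binomial intervals, which cover counting error only, were apart for mesothelial-like cells (13.9% to 16.05% in v2 and 8.57% to 10.4% in v1) and for VSM-like and pericyte-like cells (up to 0.0843% and 2.99% to 4.18%).

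**Figure D3:**
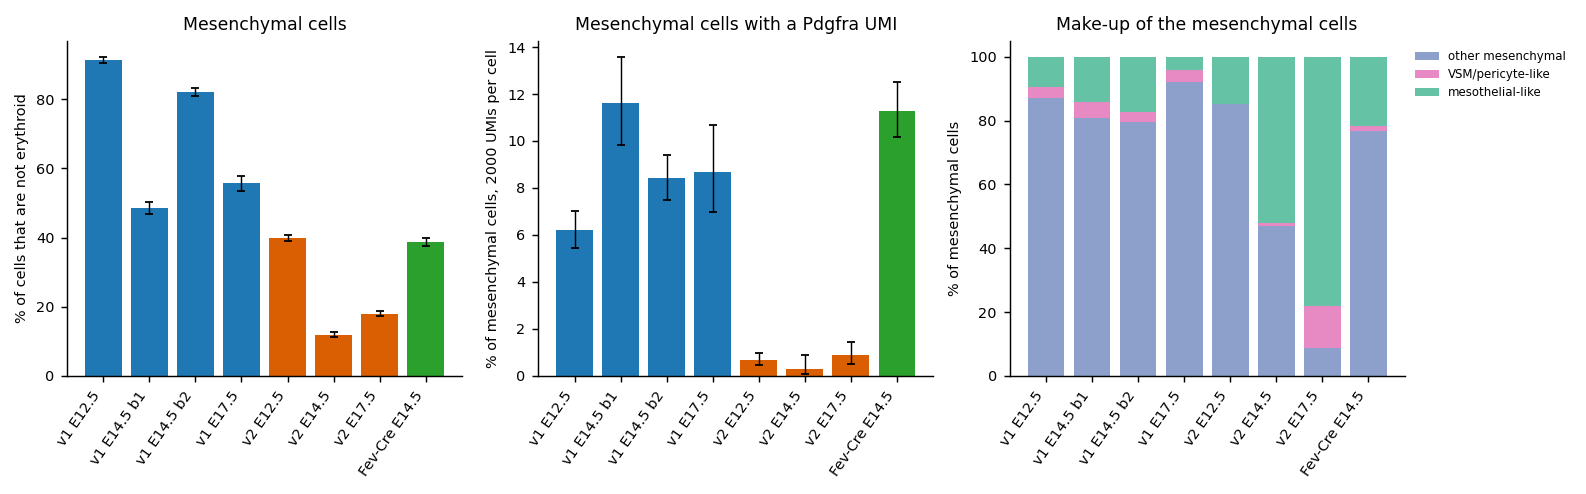
Left, mesenchymal cells as a share of cells that are not erythroid; centre, share of mesenchymal cells with a *Pdgfra* UMI after thinning to 2000 UMIs; right, the 3 classes as shares of mesenchymal cells. Bars are libraries (b1 and b2 are the E14.5 batches) and error bars exact 95% binomial intervals. The *Pdgfra* share is 6.20% to 11.6% in v1, 11.3% in Fev-Cre and 0.305% to 0.888% in v2, where mesothelial-like cells reach 78.01% of mesenchymal cells at E17.5.

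*Pdgfra* was also lower within other mesenchymal cells alone, at 3.81, 2.86 and 17.3 CPM across the v2 stages against 38.2 to 85.3 CPM in v1. The difference was -2.95 ± 0.42 (log2, edgeR adjusted p = 0.00239), and 10.3% of 11637 genes were called. The v2 cells of this class carried more of the mesothelial markers, with the 6 measured markers at a sum of 581, 734 and 801 CPM from E12.5 to E17.5, against 72.9 to 106 CPM in v1 and 81.3 CPM in Fev-Cre. Mesothelial-like cells were low in *Pdgfra*, and the part of these markers in the *Pdgfra* level was not tested. The v2 E17.5 value, from 27 UMIs in 158 cells, was the highest and left a 3.55-fold difference at that stage (2.36 to 5.53). In mesothelial-like cells alone none of the 5 PDGF genes tested was called, *Pdgfra* included (log2 fold change -2.99 ± 0.87, edgeR adjusted p = 0.0689), where 4.33% of 11317 genes were.

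The ligands *Pdgfa* and *Pdgfc* were higher in the depleted mesenchyme. *Pdgfa* stood at 86.6, 74.3 and 97.0 CPM in v2 and 33.5, 35.03, 46.4 and 30.8 CPM in v1, without overlap (log2 fold change 1.51 ± 0.22, edgeR adjusted p = 0.00328). *Pdgfc* stood at 74.0, 64.5 and 33.0 CPM in v2 and 42.9, 29.3, 43.2 and 3.81 CPM in v1, with overlap (1.58 ± 0.38, edgeR adjusted p = 0.0256). Without v2 E14.5 the adjusted p of *Pdgfc* was 0.0737 by edgeR. Against the Fev-Cre mesenchyme of the same kit and stage but another strain and sort, v2 E14.5 stood higher by 0.90 in *Pdgfa* and by 1.34 in *Pdgfc* on the log2 scale. This set 1 library against 1, with no test.

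Both ligands were also higher in v2 within other mesenchymal cells. *Pdgfa* was at 84.4, 75.9 and 42.4 CPM there against 20.8 to 24.8 CPM in v1 (1.81 ± 0.23, edgeR adjusted p = 0.00143). *Pdgfc* was at 69.8, 50.6 and 17.3 CPM against 2.28 to 24.9 CPM (2.48 ± 0.30, edgeR adjusted p = 0.00098). These are the v2 cells with raised mesothelial markers, of which 5 or 6 of 6 reached 10 CPM in v2 and 1 of 6 in v1. Erythroid markers came to 31360 CPM in the v2 E17.5 cells. The part of these markers in the ligand levels was not tested. Within mesothelial-like cells *Pdgfa* differed by 0.20 ± 0.23 (edgeR adjusted p = 0.746) and *Pdgfc* by -0.42 ± 0.26 (edgeR adjusted p = 0.463), so the rise was not seen there. At matched stage *Pdgfc* in these cells was lower in v2 than in v1 at E12.5 (log2 -1.14) and at E14.5 (-0.70 and -1.03 against batches 1 and 2). At E17.5 it stood at 0.48 (counting interval -0.75 to 2.11, on 5 v1 UMIs), and against Fev-Cre v2 E14.5 stood at 0.06 (-0.19 to 0.31).

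*Pdgfrb*, which the sort did not target, was at 57.4, 81.1, 62.6 and 51.9 CPM in v1 and 31.9, 31.0 and 34.5 CPM in v2 mesenchymal cells. The groups did not overlap, but the difference of -0.65 ± 0.19 missed the threshold (edgeR adjusted p = 0.0546). In other mesenchymal cells it was 0.23 on the log2 scale (edgeR adjusted p = 0.677), over stages that went in opposite directions. At matched stage v2 stood at -0.67 against v1 at E12.5 (counting interval -0.80 to -0.53). It stood at -0.50 and -0.17 against batches 1 and 2 at E14.5, and at 1.11 at E17.5 (0.77 to 1.44). *Pdgfd* differed by -0.13 ± 0.34 (edgeR adjusted p = 0.834). *Pdgfb* was too rare to test, with 27 UMIs in v2 and 8 in v1.

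Between E12.5 and E17.5, *Pdgfc* fell and *Pdgfd* rose in mesenchymal cells when v1 and v2 were fitted together with data set as a term. *Pdgfc* went from 42.9 to 3.81 CPM in v1 and from 74.0 to 33.0 CPM in v2, a change of -1.77 ± 0.50 on the log2 scale (edgeR adjusted p = 0.0467). *Pdgfd* went from 1.49 to 5.86 CPM in v1 and from 1.499 to 5.05 CPM in v2, a change of 2.05 ± 0.44 (edgeR adjusted p = 0.0163). Of the 5 PDGF genes tested 2 were called, beside 13.2% of 14146 genes, 9.68% higher and 3.49% lower at E17.5. Each end of the comparison had 1 library per data set, dissociation lasted 10 minutes at E12.5 and 30 minutes at E17.5, and both calls were lost in 5 alternatives each. In v2 the day of preparation changed with stage, and its part was not tested.

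The fall of *Pdgfc* was seen within classes as well. In mesothelial-like cells it went from 210 to 27.6 CPM in v1 and from 95.6 to 38.6 CPM in v2, with the E14.5 values of 126, 159 and 78.1 CPM in between (log2 change -1.67 ± 0.33, edgeR adjusted p = 0.00319). In this class 2 of 5 PDGF genes were called, where 19.1% of genes were. In other mesenchymal cells *Pdgfc* went from 24.9 to 2.28 CPM and from 69.8 to 17.3 CPM (-2.45 ± 0.42, edgeR adjusted p = 0.00735), the 1 call among 5, where 10.1% of genes were called. For *Pdgfd* neither class alone passed the threshold, with 2.09 in other mesenchymal (edgeR adjusted p = 0.0672) and 1.14 in mesothelial-like cells (edgeR adjusted p = 0.206).

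The receptors did not change detectably with stage over all mesenchymal cells, with 0.75 ± 0.37 for *Pdgfra* (log2, edgeR adjusted p = 0.218) and 0.20 for *Pdgfrb* (edgeR adjusted p = 0.648). In other mesenchymal cells alone *Pdgfra* was at 1.59 ± 0.49, also short of the threshold (edgeR adjusted p = 0.0785). There it was 1.61-fold higher at E17.5 than at E12.5 in v1 (counting interval 1.36 to 1.90) and 4.56-fold higher in v2 (2.85 to 7.08). In v2 this class went from 3719 cells with 89 *Pdgfra* UMIs at E12.5 to 158 cells with 27 at E17.5. The *Pdgfra* fits and the v2 ratio take in cells left by a sort on the protein of this gene. The part of that sort was not tested. *Pdgfa*, at 0.24 over all mesenchymal cells, was likewise not called (edgeR adjusted p = 0.630). In mesothelial-like cells *Pdgfra* was called higher at E17.5 (3.29 ± 0.97, edgeR adjusted p = 0.0289), on low levels. In v1 there were 6 UMIs at E12.5 and 2 at E17.5, a ratio of 3.03 with a counting interval of 0.299 to 16.9. In v2 there were 0 UMIs at E12.5 and 51 at E17.5. The latter came to 3.15 CPM, near the v1 erythroid-like level given above, which is of another kit. In the v2 E17.5 library itself, epithelial cells gave 2 *Pdgfra* UMIs (0.0247 CPM) and erythroid cells 3 UMIs, so the mesothelial-like level lay above the epithelial one. In other mesenchymal cells *Pdgfrb* went from 60.002 to 46.9 CPM in v1 and from 37.8 to 101 CPM in v2, in opposite directions.

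**Figure D4:**
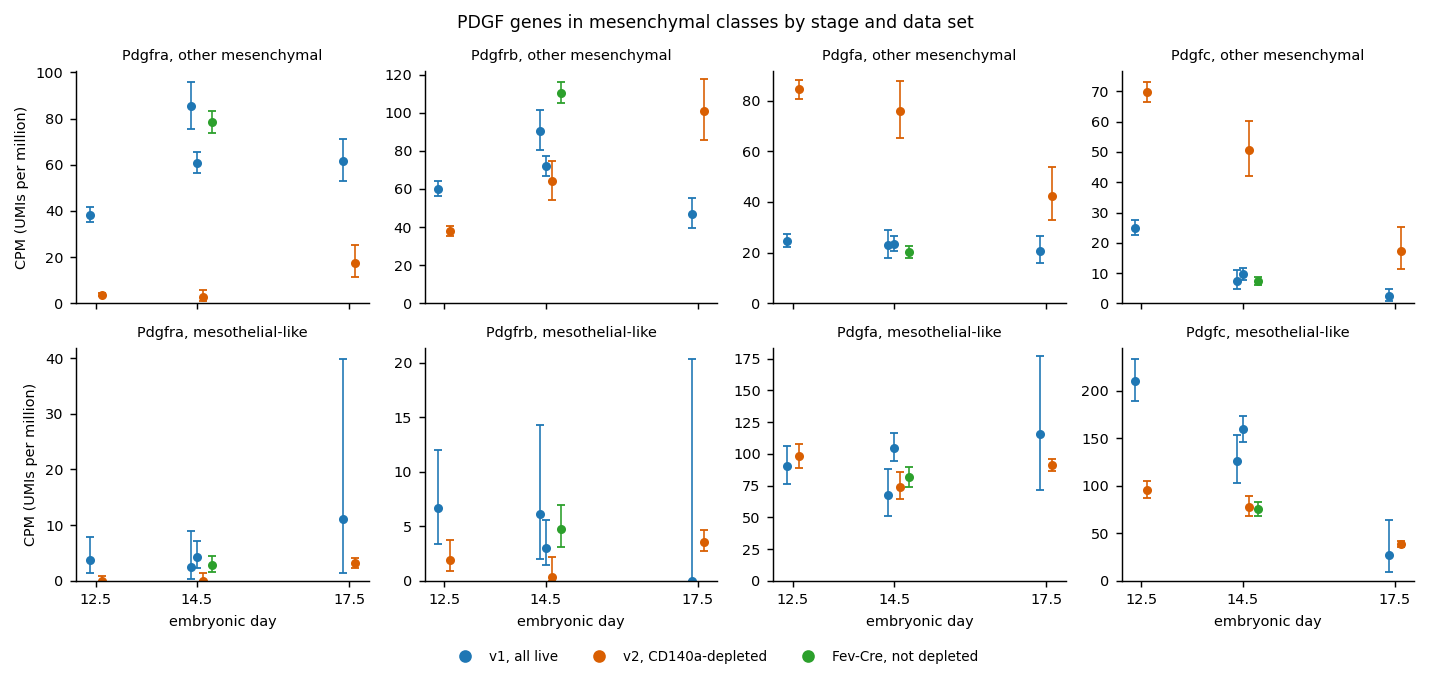
CPM of *Pdgfra*, *Pdgfrb*, *Pdgfa* and *Pdgfc* in other mesenchymal cells (top) and mesothelial-like cells (bottom) against embryonic day, 1 point per library coloured by data set, offset sideways where stages coincide, with exact 95% Poisson intervals. *Pdgfc* in mesothelial-like cells runs from 210 to 27.6 CPM in v1 and from 95.6 to 38.6 CPM in v2, and *Pdgfa* in other mesenchymal cells is higher in v2 (42.4 to 84.4 CPM) than in v1 (20.8 to 24.8 CPM).

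In epithelial cells *Pdgfd* was the 1 PDGF gene called among 6 tested, where 4.57% of 13367 genes were called, 3.34% higher and 1.23% lower at E17.5. It went from 5.41 CPM at E12.5 through 5.55 and 4.86 CPM at E14.5 to 43.0 CPM at E17.5 in v1, and from 1.66 through 2.89 to 9.85 CPM in v2. The E17.5 value was the highest of each data set, and over all epithelial cells the change was 2.95 ± 0.50 on the log2 scale (edgeR adjusted p = 0.0104). Without v1 E17.5 the adjusted p was 0.0774 and without v2 E12.5 it was 0.264, by edgeR. In v2 E12.5 most of the 5127 epithelial cells had no exocrine or endocrine name, with 42 named exocrine and 972 in the endocrine clusters, unnamed ones included. Those 2 sets held 3 and 13 of the 92 epithelial *Pdgfd* UMIs there, so the part of class make-up in the v2 change was not tested. Within ductal-like cells the level at E17.5 was 19.2-fold that at E12.5 in v1 (interval 5.10 to 161) and 1.84-fold in v2 (0.626 to 8.92). The erythroid markers of ductal-like cells moved with it, from 246 to 10247 CPM in v1 and from 716 to 5936 CPM in v2, and their part was not tested. By these intervals, a change in v2 per ductal-like cell was not detectable at this depth. *Pdgfc* changed in the same direction without passing the test (1.89 ± 0.53, edgeR adjusted p = 0.0820), and the other 4 genes had adjusted p of 0.205 to 0.605 by edgeR.

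**Figure D5:**
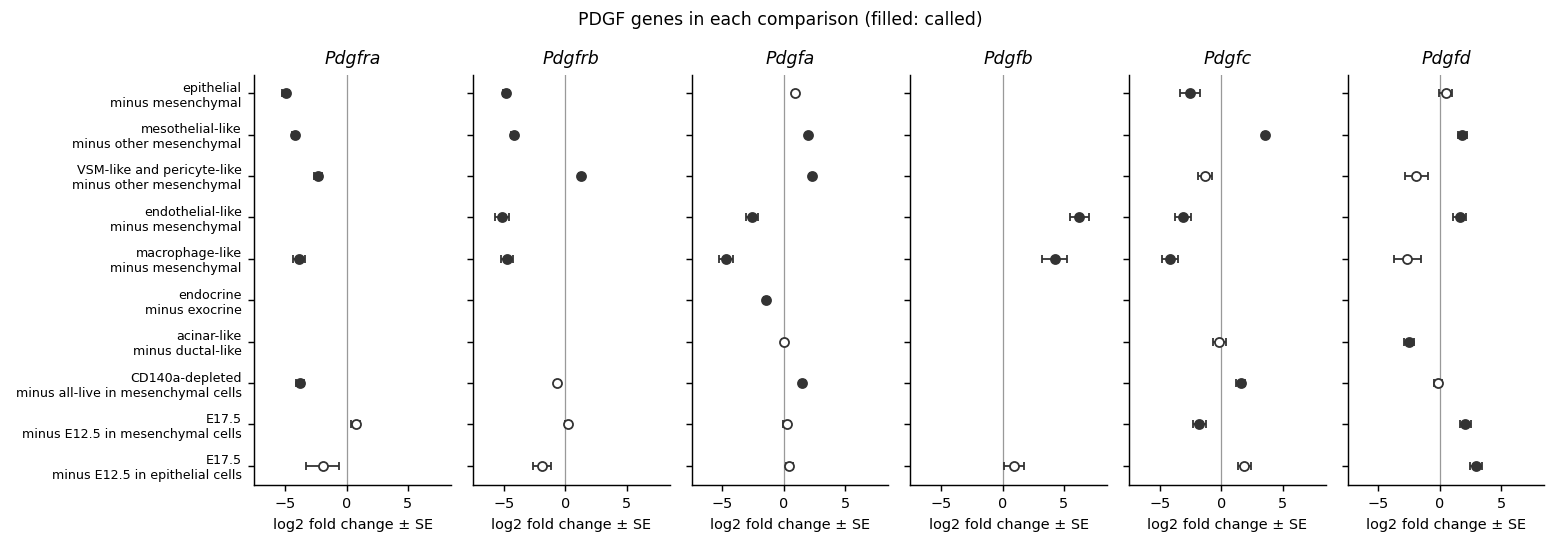
Log2 fold change ± SE of each PDGF gene (columns) in the 10 comparisons (lines), filled where the gene was called. Genes not tested are left out, as is *Pdgfra* in endothelial-like cells, which had 0 UMIs. *Pdgfra* and *Pdgfrb* lie near -5 in epithelial cells (-4.95 and -4.83), and *Pdgfb* is highest in endothelial-like cells at 6.26.

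A list of 38 further genes of the pathway covered proteases and binding partners of the ligands, signalling proteins that bind the receptors, immediate early targets and related receptors. In epithelial against mesenchymal cells 2 of 35 tested were higher and 9 lower, beside 17.1% and 15.9% of all genes, with a median log2 fold change of -0.31 against 0.02 over all genes. *St14*, which encodes the protease matriptase, was higher by 6.19, and *Plat*, the tissue plasminogen activator that cleaves latent PDGF-C, was lower by a log2 fold change of -6.05. *Kit*, a related receptor, was higher by 2.20, and *Lrp1*, a co-receptor of PDGFRβ, stood at -3.94. Of the ligand proteases and binding partners, 1 of 9 tested was higher and 6 were lower. The list as a whole was called about as often as all genes (33.0%).

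Mesothelial-like cells were higher in 3 and lower in 7 of 34 list genes against other mesenchymal cells (10.6% and 7.46% of all genes, median -0.43 against -0.02). *Pcsk5*, a proprotein convertase, was at 2.13 and *Nrp2*, a neuropilin co-receptor, at 1.70, while *Nrp1* was at -3.08 and *Junb*, an immediate early gene, at -2.29. In VSM-like and pericyte-like cells 1 of 31 was higher, *Nrp2* at 1.77, and 0 were lower (2.98% and 3.35% of all genes, median 0.11 against -0.06). Endothelial-like cells had 3 of 31 higher and 7 lower against mesenchymal cells (8.63% and 14.8% of all genes, median -0.15 against -0.17), led by *Nrp2* at 3.02 and *Plcg1*, a phospholipase that docks on the receptors, at 1.42, with *Plat* at -4.15 and *Lrp1* at -3.82. In macrophage-like cells 7 of 33 were higher and 6 lower (13.2% and 24.4% of all genes, median -0.24 against -0.33). *Csf1r*, a macrophage marker used for naming, stood at 540 ± 168 CPM against 0.292 CPM. *Plau*, the urokinase that cleaves PDGF-D, was at 5.99 ± 8.498 CPM against 0.262 CPM but higher in only 2 of 5 libraries. *Sparc*, a PDGF-binding matrix protein, was at -5.99. *Pcsk5* had 0 UMIs in macrophage-like cells, at least 6.42-fold lower than in mesenchymal cells when 3 counts over the group are allowed.

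Between endocrine and exocrine cells 3 of 27 list genes were higher and 5 lower (16.2% and 16.7% of all genes, median 0.07 against 0.03), with *Stat3* at 2.31, *Pik3r1* at 1.57, *Myc* at -4.25 and *Nrp1* at -3.44. Acinar-like cells had 1 of 25 higher and 3 lower than ductal-like cells (4.12% and 7.08% of all genes, median -0.41 against -0.04), with *Myc* at 2.93, *Sparc* at -2.65 and *Src* at -1.36. In the depleted mesenchyme 4 of 36 were higher and 2 lower (8.02% and 4.13% of all genes, median -0.02 against 0.01). *Nrp2* was at 1.64, *Nrp1* at -1.99 and *Lrp1* at -1.36. *Csf1r*, the macrophage marker, was at 3.61 there, from 189 UMIs in v2 and 4 in v1. Its v2 level was uneven, at 3.01 ± 4.13 CPM (n = 3), and the part of macrophage transcripts in it was not tested.

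With stage, 10 of 36 list genes were higher and 0 lower at E17.5 in mesenchymal cells (9.68% and 3.49% of all genes, median 0.38 against -0.02), and 4 of 35 higher and 1 lower in epithelial cells (3.34% and 1.23% of all genes, median 0.35 against -0.01). Of the 7 immediate early targets, 5 were higher in mesenchymal and 3 in epithelial cells. *Junb* was at 4.23 and *Fos* at 3.76 in mesenchymal cells, and *Fos* at 3.25 and *Junb* at 3.14 in epithelial cells. The longer dissociation at E17.5 moved with these genes, and its part was not tested. *Nrp1* was at -1.9999 in epithelial cells.

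Genes whose levels ran most like those of each PDGF gene were found by Pearson's r of log2(CPM + 1) over 53 sums of class and library in the 4 v1 libraries, among 8697 genes. These sums share libraries and depth, so r is a description. For *Pdgfra* the genes were *Cxcl13* (0.76), *Lox* (0.74) and *Rem1* (0.73), and for *Pdgfrb* they were *Vstm4* (0.83), *Kcnj8* (0.81) and *Fap* (0.81). *Kcnj8* was a pericyte marker used for naming. For *Pdgfa* they were *Rab34* (0.88), *Ddr1* (0.85) and *Efna2* (0.84). The rarer *Pdgfb* had *Ctgf* (0.71), *Gpihbp1* (0.70) and *Flt1* (0.69). *Pdgfc* had *Pdpn* (0.72), *Upk3b* (0.71), a mesothelial marker used for naming, and *Tm4sf5* (0.70). *Pdgfd* had *Magi1* (0.63), *Glo1* (0.61) and *Kctd6* (0.60), the lowest values of the 6.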

How the data were processed

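UMI counts per gene and cell were used as deposited by the authors, who had aligned reads to mm10 with Cell Ranger 1.1 (v1) or 2.1 (v2, Fev-Cre). The E17.5 v2 wells were 2 runs of the same pancreata and were summed. The Fev-Cre library was deposited in 2 alignments, and the one with reporter sequences was used. Over the 7888 barcodes they share, the PDGF counts differed in 0 cells. Embryos were pooled, so p-values measure the spread between libraries and not between embryos. In the class comparisons that spread includes differences of stage, kit, strain and sort between libraries. In the depletion and stage comparisons it includes differences between the data sets in how stages differ. The PDGF genes and all gene lists were chosen with earlier results of these data known.

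Barcodes with at least 200 genes were kept. Cells with markers of compartments that exclude each other were removed as doublets (0.455% to 6.84% of cells per library), as were clusters of mixed markers (1.39% to 5.04%), which left 2236 to 11993 cells. Cells were clustered per data set by Leiden (resolution 1, leidenalg 0.10.2, igraph 0.11.9, scikit-learn 1.9.0, numpy 2.4.6, scipy 1.17.1, Python 3.11.15) without the PDGF genes, and clusters were named from marker lists as "-like".

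Counts were summed per class and library (at least 20 cells) and tested with edgeR 4.0.16 in R 4.3.3, with TMM scaling, low counts filtered and quasi-likelihood tests. Class comparisons used the 5 unsorted libraries with library as a block, since the classes of a library come from 1 suspension. Deviations of classes within a library correlated at 0.153 to 0.810, against at most 0.230 between libraries. The depletion and stage comparisons used the 7 Swiss Webster libraries, with stage and data set as terms. DESeq2 1.42.0 was an alternative, and the edgeR step was tested on simulated data. The PDGF genes were named in every comparison. Of the 38 pathway genes, those named had the 2 largest changes called in each direction. The 3 genes most like each PDGF gene needed a mean of 10 CPM. Outlier checks, left-out libraries, other filters and other cluster settings are in the closing section. Figures were drawn with matplotlib 3.10.9.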

Additional observations from a re-analysis of the deposited data

Results flagged for a closer look

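Of 24 sets of 4 to 5 per-library values examined with Dixon's test, 2 held a value far from the rest. Chance alone picks out about 1 in 20 such sets. In v1 E17.5 the log2 difference of *Pdgfc* between epithelial and mesenchymal cells was 2.53, against -3.74 to -3.13 in the other 4 unsorted libraries. In v1 E14.5 batch 2 the difference of *Pdgfc* between acinar-like and ductal-like cells was -3.63, against 0.24 to 0.46 in 3 other unsorted libraries. The fifth, v1 E17.5, gave 0 *Pdgfc* UMIs in acinar-like cells and 38 in ductal-like cells, so it had no log2 difference and was not part of the set, but it lay in the same direction.

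The change of *Pdgfrb* from E12.5 to E17.5 in other mesenchymal cells was -0.36 on the log2 scale in v1 (interval -0.62 to -0.10) and 1.42 in v2 (1.16 to 1.66). With 1 library per stage at each end, this difference between the data sets was not tested.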

How the results depend on the processing

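Leaving out the library as a block gave 1252 called genes in place of 2217 for mesothelial-like against other mesenchymal cells, 218 in place of 695 for VSM-like and pericyte-like cells and 489 in place of 941 for acinar-like against ductal-like cells. Without the block *Pdgfd* was not called in mesothelial-like (adjusted p = 0.139) or endothelial-like cells (adjusted p = 0.0887) by edgeR. No other PDGF call changed. With at least 50 cells per class the VSM-like and pericyte-like count was 422, and the endothelial-like comparison could not be run, as 1 library remained. Without a filter on low counts 5147 genes were called in place of 3406 between endocrine and exocrine cells, 1521 between acinar-like and ductal-like cells, and 1027 in place of 611 with stage in epithelial cells. All 8 libraries gave 2179 for acinar-like against ductal-like cells, and DESeq2 gave 1135 for stage in epithelial cells. Taking only mesothelial-like cells, chosen after seeing the data, gave 490 in place of 1718 called genes between CD140a-depleted and all-live mesenchyme and reversed *Pdgfc* to -0.42. Taking only other mesenchymal cells gave 1172 in place of 1862 with stage. The cause was not tested for any of these.

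Leaving out 1 library at a time gave 458 (without v1 E14.5 batch 2) to 889 called genes for VSM-like and pericyte-like cells, 641 to 1155 for acinar-like against ductal-like cells, 1144 (without v2 E14.5) to 1755 for the depletion, 847 (without v2 E12.5) to 1911 for stage in mesenchymal cells and 51 (without v2 E12.5) to 2138 (without v1 E14.5 batch 1) for stage in epithelial cells. The difference in the *Pdgfra*-positive share ran from -8.95 to -7.14 percentage points, and that in the mesenchymal share from -54.6 to -38.9, at sizes where p cannot reach 0.05. Thinned to 1000 UMIs the first was -4.55 (exact permutation p = 0.0571). At Leiden resolution 2 the second was -43.5 (exact permutation p = 0.0286).

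Of 30 PDGF genes called in a comparison, 21 were called in the same direction under each alternative that gave them a test, and 13 of 17 not called were called under none. Genes near the count filter had fewer such tests, *Pdgfb* in macrophage-like cells 7, with 2 of 5 left-out libraries. Of the 593 pairs of such a value and an alternative, 559 kept direction and call. Among those not called, *Pdgfc* in VSM-like and pericyte-like cells was called lower under 5 alternatives (edgeR adjusted p of 0.0155 at the lowest). *Pdgfd* in macrophage-like cells was called lower with all 8 libraries. *Pdgfra* with stage was called higher in mesothelial-like cells alone. *Pdgfc* with stage in epithelial cells was called higher under DESeq2 (adjusted p = 0.0207) and without v1 E14.5 batch 1. Counts for epithelial against mesenchymal (3463 to 5454), endothelial-like (1830 to 3471) and macrophage-like cells (3194 to 5692) stayed within 1.5 times the reported value. Depth limited *Pdgfb* most, with 105 UMIs in the unsorted libraries.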

Other observations

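Neural crest and glia-like cells, a small class outside the comparisons above, held *Pdgfa* at 229 CPM in v1 E14.5 batch 2 (21 cells), 145 CPM in Fev-Cre (36 cells) and, in v2, 17.95 CPM at E12.5 (303 cells), 96.4 CPM at E14.5 (24 cells) and 575 CPM at E17.5 (83 cells). After thinning to 2000 UMIs, 2.31% of these cells held a *Pdgfa* UMI in v2 E12.5 and 54.2% in v2 E17.5. The class gave at most 2 *Pdgfra* UMIs and 0 *Pdgfrb* UMIs in any of these libraries. In v1 E14.5 batch 2 its summed erythroid markers came to 86421 CPM, and their part in the level was not tested.

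Some PDGF genes with too few counts for the main comparison were called elsewhere. With no filter on low counts, endocrine cells were lower than exocrine cells in *Pdgfb* (log2 fold change -2.75, edgeR adjusted p = 0.0116), *Pdgfc* (-3.67, edgeR adjusted p = 2.37e-12) and *Pdgfd* (-1.32, edgeR adjusted p = 0.000833). With all 8 libraries *Pdgfc* was at -3.37 and *Pdgfd* at -2.03 there. Library by library, *Pdgfd* was lower in endocrine cells of each v1 library and higher in those of Fev-Cre (0.742, on 44 and 39 UMIs). The largest difference was -4.15 in v1 E17.5, where 68 of the 69 exocrine UMIs were in the ductal-like cells with erythroid markers. *Pdgfb* was called higher in epithelial than mesenchymal cells with all 8 libraries (1.39, edgeR adjusted p = 0.0204) and higher in VSM-like and pericyte-like than other mesenchymal cells with no filter (4.46, edgeR adjusted p = 0.00556). The latter call rested on 6 and 5 UMIs in all, with a counting interval of 6.45 to 105 for the pooled ratio. *Pdgfrb* was called higher in acinar-like than ductal-like cells with no filter (1.26, edgeR adjusted p = 0.0412) and with all 8 libraries (1.94, edgeR adjusted p = 0.00885). Its mean levels in the unsorted libraries, 2.57 ± 1.99 and 1.40 ± 1.31 CPM (n = 5), were below the 4.02 ± 1.90 CPM of erythroid-like cells (n = 4, without Fev-Cre). In Fev-Cre, acinar-like cells reached 5.50 CPM (105 UMIs) and ductal-like cells 2.39 CPM (22 UMIs). Whether these levels lie above background was not tested, and the v2 levels were not set against erythroid-like cells, so they are not read as expression.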
